A study of Mus musculus with 3 samples.

Results

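The heart is the earliest organ to work in the mouse embryo, and its muscle is built by a small set of transcription factors. NKX2-5, GATA4, TBX5 and HAND2 bind together at many heart enhancers and switch on the proteins of the sarcomere, the contractile unit of striated muscle. Each of these factors is also used elsewhere: GATA4 in gut, liver and gonad, TBX5 in the forelimb bud, HAND2 in limb buds, branchial arches and sympathetic neurons. Several sarcomere proteins of the heart are shared with skeletal muscle, above all while skeletal muscle is immature.

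Chromatin accessibility was followed at 9 genes chosen from a list of such factors and proteins, out of 21593 protein-coding genes that were counted in these nuclei. The members are 4 factor genes (Nkx2-5, Gata4, Tbx5 and Hand2) and 5 sarcomere genes (Myh6, Myh7, Tnnt2, Myl7 and Actn2). The rule that names them uses no measured value, but they were picked with earlier results of these data known. The data are single-nucleus ATAC-seq (snATAC-seq), in which the transposase Tn5 cuts open DNA and every fragment keeps the barcode of its nucleus. The embryos were of the strain C57BL/6JRj and wild type, littermates of those used for spatial maps, with 1 library each for stages E12.5, E13.5 and E15.5, the days of embryonic development. The nuclei were released from a few thick frozen sections per stage, so a library samples the organs that those sections crossed and not the whole embryo. The cell table lists 1879 nuclei, which are 153, 970 and 756 in order of stage. After the shallow clusters 2 and 4 were left out, 83, 809 and 558 nuclei remained, with a median of 89063, 75180 and 64204.5 unique fragments each. The libraries hold 9402554, 87687839 and 53120243 unique fragments, and intervals on counts cover counting error only. Barcodes were nearly all distinct, with 1 shared between E13.5 and E15.5. Of the 1450 nuclei 37, none of them in cluster 10, were linked by shared fragments to another listed barcode of their library. A pair was linked when the shared fragments made up at least 10% of those of its shallower barcode.

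The 9 genes lie on 7 chromosomes, and their positions in mm10 (GENCODE vM21) are as follows. Among the factors, Nkx2-5 spans chr17:26838664-26845009 on the minus strand, Gata4 chr14:63198922-63271692 on the minus strand, Tbx5 chr5:119832668-119885219 on the plus strand and Hand2 chr8:57320983-57324633 on the plus strand. Among the sarcomere genes, Myh6 spans chr14:54941921-54966927 and Myh7 chr14:54970684-54994626, side by side on the minus strand. Tnnt2 spans chr1:135836354-135852260 on the plus strand, Myl7 chr11:5896637-5898782 on the minus strand and Actn2 chr13:12269426-12340760 on the minus strand. Accessibility was counted in the gene body plus 2 kb upstream (the body window), which holds exons, introns and UTRs, and in a promoter window from 1000 bases before to 100 bases after the annotated start. ATAC-seq does not tell strands apart. Fragments in the Hand2 promoter are therefore shared with the antisense gene Hand2os1, those in the Tbx5 promoter with Gm43050, and those in the Myh6 and Myh7 bodies with the antisense transcript Mhrt and others.

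The bases just before the start are shown for the 3 sarcomere genes whose promoters were most raised in cluster 10, a cluster of nuclei in which skeletal muscle genes were open, and for Myl7, whose promoter had too few fragments to be tested. The last sequence is a stretch upstream of Myh7 that was open in the same cluster. All are 5′ to 3′ on the strand of the gene, from RefSeq on GRCm38.p6, and for the 4 genes they end before the annotated start, so that the Actn2 stretch is shorter. Capitals mark CANNTG, the E-box bound by basic helix-loop-helix factors such as MYOD1 and HAND2, and the CArG box bound by the serum response factor. TATAAA and MEF2 matches would be in capitals too, but there are none.
Tnnt2, chr1:135836084-135836333: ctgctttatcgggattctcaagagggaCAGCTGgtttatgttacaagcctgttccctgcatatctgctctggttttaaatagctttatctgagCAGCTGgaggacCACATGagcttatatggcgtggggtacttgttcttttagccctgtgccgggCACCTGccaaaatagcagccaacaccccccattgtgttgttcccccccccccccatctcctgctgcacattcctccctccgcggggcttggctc
Actn2, chr13:12340761-12340982: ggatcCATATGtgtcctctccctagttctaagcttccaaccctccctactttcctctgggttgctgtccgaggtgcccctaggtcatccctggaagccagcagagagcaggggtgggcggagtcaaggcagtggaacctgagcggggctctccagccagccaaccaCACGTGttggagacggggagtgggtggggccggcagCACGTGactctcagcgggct
Myh7, chr14:54994627-54994876: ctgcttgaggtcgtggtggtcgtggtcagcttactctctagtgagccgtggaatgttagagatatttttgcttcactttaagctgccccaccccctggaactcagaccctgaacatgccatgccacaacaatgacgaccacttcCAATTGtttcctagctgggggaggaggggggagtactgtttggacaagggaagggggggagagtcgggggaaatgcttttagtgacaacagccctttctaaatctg
Myl7, chr11:5898783-5899032: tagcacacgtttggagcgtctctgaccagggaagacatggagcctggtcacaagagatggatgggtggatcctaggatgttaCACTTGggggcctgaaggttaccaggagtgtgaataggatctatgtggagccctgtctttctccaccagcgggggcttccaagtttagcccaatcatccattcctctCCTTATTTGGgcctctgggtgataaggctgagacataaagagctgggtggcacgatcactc
Myh7 upstream region, chr14:54997377-54997626: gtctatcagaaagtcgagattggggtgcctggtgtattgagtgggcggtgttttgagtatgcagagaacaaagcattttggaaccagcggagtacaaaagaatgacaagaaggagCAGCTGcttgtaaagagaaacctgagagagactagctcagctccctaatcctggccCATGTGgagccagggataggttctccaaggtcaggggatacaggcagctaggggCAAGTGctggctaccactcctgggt

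Motif matches were searched on both strands in the 250 bases before the start, in the 32841 mouse promoters of the same table and in the 7 members it holds (Gata4 and Tbx5 are not in it). Tnnt2 held 4 E-boxes, Actn2 3 and Myh7 1, and 66.2% of all promoters held at least 1. The GATA motif (AGATAA or TGATAA) matched in Tnnt2, Myl7 and Hand2, against 16.6% of promoters. CACTT, a core of NKX2-5 sites, matched in Myh6, Myh7, Myl7 and Hand2, against 40.7% of promoters, and in Myl7 it lies within the E-box shown. The T-box motif AGGTGT (11.8% of promoters), TATAAA (12.4%) and MEF2 (2.92%) matched in none of the 7 windows, and a CArG box in Myl7 alone (1.47% of promoters). Short motifs match often by their length, and a match is not a measured binding site.

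The comparison that the data allow is between clusters, the groups of nuclei numbered in the deposited cell table. Fragments were summed per cluster and library, and 23 sums from 9 clusters, each of at least 10 nuclei, entered a single fit with the library as a block. In this fit cluster 10 was represented by 49 nuclei from the E13.5 library and 24 from E15.5, and its 2 nuclei from E12.5 were too few to enter. Levels are given as counts per 1000000 (CPM) of the fragments counted over all genes in that sum. In each cluster the p-value asks whether the sums of that cluster differ from the mean of the others (edgeR quasi-likelihood test, Benjamini-Hochberg adjustment over all genes tested). Clusters are drawn from the accessibility of these nuclei, so such a p-value describes groups already set apart. Each stage has 1 library, so the difference is weighed against residual variation between libraries of different stages, estimated over all 9 clusters together. The p-value does not measure how evenly a difference recurs within cluster 10 itself.

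Cluster 10 had the most members called higher in the body window, and all of them were sarcomere genes. Tnnt2, Actn2 and Myh7 were called higher in cluster 10, which is 3 of 9 members, where 5.70% of all 19196 genes tested were. None of the 4 factor genes was called in cluster 10 in this window, in either direction. Myh6 fell just short of the threshold and Myl7 did not differ detectably.

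Tnnt2 encodes cardiac troponin T, the thin-filament protein that links troponin to tropomyosin and is also made in embryonic skeletal muscle. Its body window had 67.8 CPM in cluster 10 at E13.5 (205 fragments) and 71.8 CPM at E15.5 (89 fragments). The other 8 clusters ranged from 14.3 to 34.9 CPM at E13.5 and from 5.64 to 28.8 CPM at E15.5, so cluster 10 stood above each of them in both libraries. The fold over their mean was 2.94 and 3.6 in these libraries. The log2 fold change was 1.71 ± 0.25 (SE, adjusted p = 1.15e-05, edgeR). The SE of a log2 fold change is an approximation throughout, its absolute value divided by the square root of the F value of the test. It is unreliable for changes near 0.

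Actn2 encodes alpha-actinin-2, which anchors actin filaments in the Z-disc of heart and skeletal muscle. It had 154.1 CPM in cluster 10 at E13.5 (466 fragments) and 157.3 CPM at E15.5 (195 fragments). The other clusters lay between 42.1 and 63.5 CPM at E13.5 and between 20.1 and 85.7 CPM at E15.5. Cluster 10 was again above all of them, with folds of 2.96 and 2.78 over their mean and a log2 fold change of 1.60 ± 0.21 (adjusted p = 1.13e-06, edgeR). At E15.5 a single nucleus held 56 of the 195 fragments, and without the largest nucleus of every sum the folds were 2.98 and 2.37.

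Myh7 encodes the slow, beta form of the myosin heavy chain, used in the ventricle and in slow skeletal fibres. It had 60.5 and 43.5 CPM in cluster 10 in the E13.5 and E15.5 libraries. At E13.5 this was above all 8 other clusters (14.4 to 41.3 CPM), and at E15.5 cluster 0 was higher, with 52.9 CPM. The log2 fold change was 1.08 ± 0.26 (adjusted p = 0.00592, edgeR). Without the E13.5 library the adjusted p was 0.38 and without the E15.5 library 0.062, so the call was lost in either case, while the log2 fold change was 1.04 and 1.26.

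Myh6, the alpha myosin heavy chain of the atrium, split between the libraries. Its body window had 59.5 CPM in cluster 10 at E13.5, where the other clusters ranged from 14.2 to 54.9 CPM, and 26.6 CPM at E15.5, within the range of the others (6.77 to 38 CPM). Of the 180 fragments at E13.5, 40 came from a single nucleus. The log2 fold change was 1.01 ± 0.33 (adjusted p = 0.0591, edgeR), and it passed the threshold in 3 of 11 other settings.

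Myl7, the atrial regulatory light chain, gave few fragments. It had 7.6 CPM in cluster 10 at E13.5 (23 fragments) and 4.03 CPM at E15.5 (5 fragments), inside the range of the other clusters in both (2.13 to 15 and 0 to 11 CPM). Its log2 fold change was -0.12 ± 0.56 (adjusted p = 0.947, edgeR).

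The factor genes were not called in cluster 10. Gata4, a zinc finger factor, had 81.7 CPM in cluster 10 at E13.5, with 3 of 8 other clusters as high, and 125 CPM at E15.5, above all 8 (14.1 to 95.4 CPM). Its log2 fold change was 0.55 ± 0.25 (adjusted p = 0.225, edgeR). Hand2, a basic helix-loop-helix factor, had 15.2 CPM at E13.5, with 1 other cluster as high, and 8.06 CPM at E15.5, with 7 as high (log2 fold change 0.41 ± 0.38, adjusted p = 0.646, edgeR). Tbx5, a T-box factor, had 40.3 and 29 CPM, with 6 other clusters as high in both libraries (log2 fold change -0.42 ± 0.27, adjusted p = 0.436, edgeR). Nkx2-5, a homeodomain factor, had 18.5 and 14.5 CPM, with 2 as high in both (0.62 ± 0.39, adjusted p = 0.436, edgeR). Of its 56 fragments at E13.5, 17 came from a single nucleus.

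**Figure D1:**
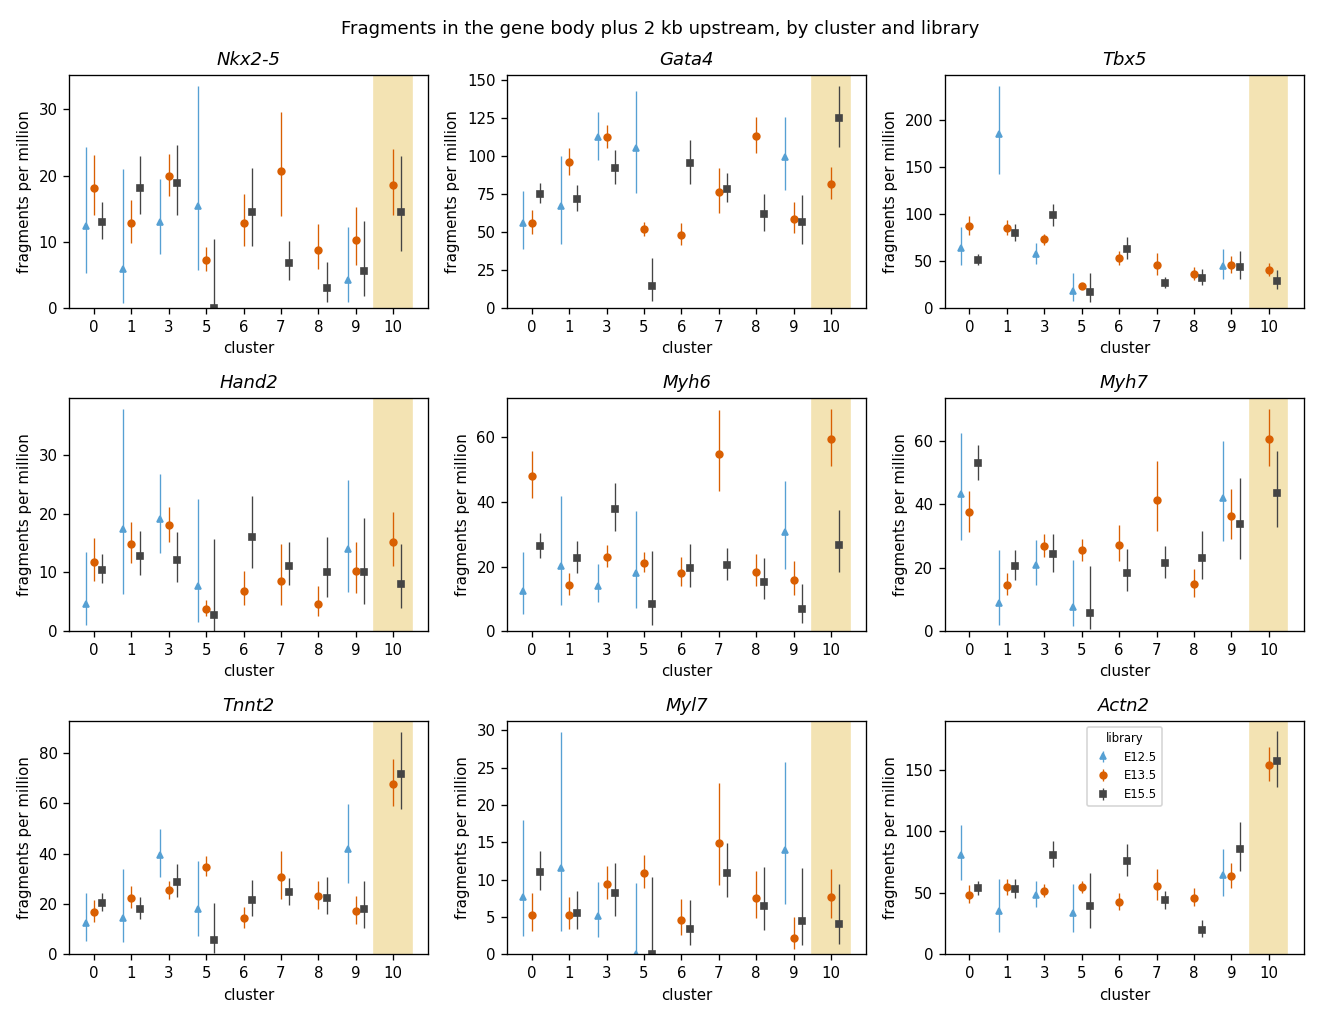
Level of each member by cluster and library. Each panel is a gene, the horizontal axis is the cluster number, the vertical axis the fragments in the gene body plus 2 kb per 1000000 counted over all genes, the colours and marks are the libraries, and bars are exact 95% Poisson intervals of the fragment count. Tnnt2 and Actn2 stand above every other cluster in cluster 10 (shaded) at both E13.5 and E15.5, while the factor genes Nkx2-5, Tbx5 and Hand2 do not.

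The promoters gave the same 3 genes with larger differences for Tnnt2 and Myh7. Only 5 members had enough promoter fragments to be tested, and 3 of these 5 were called higher in cluster 10, where 3.86% of 14026 genes tested were. Tnnt2 had 61 promoter fragments at E13.5 (125 CPM, against 2.07 to 26.1 CPM in the other clusters) and 17 at E15.5 (77.2 CPM, against 0 to 15.2 CPM). These are folds of 11.7 and 10.5 over the mean of the other clusters, and the log2 fold change was 3.68 ± 0.43 (adjusted p = 1.37e-12, edgeR). Myh7 had 79.9 and 36.3 CPM in the same order, where the other clusters reached 29 and 26.9 CPM, with a log2 fold change of 2.23 ± 0.46 (adjusted p = 0.000179, edgeR). Actn2 had 73.8 and 86.3 CPM, where the others reached 66.3 and 55 CPM, with a log2 fold change of 1.50 ± 0.35 (adjusted p = 0.00145, edgeR). In cluster 10 the Tnnt2 promoter was covered in 26 of 49 nuclei (E13.5) and in 13 of 24 (E15.5), with at most 8 and 3 fragments in any nucleus. Without the E13.5 library only Tnnt2 was called, and without the E15.5 library Tnnt2 and Myh7. The log2 fold changes whose calls were lost were 2.30 for Myh7 and 1.94 for Actn2 in the former case and 1.27 for Actn2 in the latter.

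The promoter counts of the other members in cluster 10 were small. Gata4 had 0 and 1 fragments in the E13.5 and E15.5 libraries, and Myh6 had 6 and 5. Tbx5 had 10, Hand2 11 and Myl7 9 at E13.5, and all 3 had 0 at E15.5, where 3 fragments would be 13.6 CPM. The ratio of E15.5 to E13.5 was thus 0, with exact 95% intervals of 0 to 0.989 for Tbx5, 0 to 0.883 for Hand2 and 0 to 1.12 for Myl7, counting error only. Single nuclei held 6 of the 11 Hand2 fragments and 3 of the 10 Tbx5 fragments at E13.5, and without them the levels there were 10.2 and 14.3 CPM, so these intervals are too narrow. Neither Tbx5 (log2 fold change 0.32 ± 0.68, adjusted p = 0.9, edgeR) nor Hand2 (0.60 ± 0.69, adjusted p = 0.785, edgeR) was called.

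Nkx2-5 depended on which start was counted. Its annotated 5′ end lies 3444 bases upstream of the RefSeq start, so the promoter window misses the latter, and the gene had too few fragments to be tested there. With the starts of all transcripts counted together, cluster 10 had 18 and 8 fragments in the E13.5 and E15.5 libraries (26.9 and 26.8 CPM), beside 27.7 and 29.4 CPM in cluster 3. In that fit Nkx2-5 was called higher in cluster 10 (log2 fold change 1.66 ± 0.52, adjusted p = 0.0406, edgeR), where 4.54% of all genes were, and in cluster 3 (1.61 ± 0.42, adjusted p = 0.00742, edgeR). In cluster 10 the 18 fragments at E13.5 came from 6 nuclei, 7 of them from a single one, without which the level was 16.4 CPM. The order of these clusters depended on the scale: per 1000000 of all unique fragments, cluster 10 had 3.57 and 3.92 and cluster 3 had 2.71 and 3.02.

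Cluster 3 was called higher at 3 of the 4 factor genes together when all starts were counted, where 7.32% of all genes were. Beside Nkx2-5 these were Gata4 (log2 fold change 1.34 ± 0.29, adjusted p = 0.00111, edgeR) and Tbx5 (1.19 ± 0.30, adjusted p = 0.00478, edgeR). Gata4 had 41.1, 59.6 and 64.2 CPM there in order of stage, and Tbx5 48, 43 and 53.2 CPM. At E12.5 a single nucleus held 6 of the 12 Gata4 fragments of cluster 3. These levels too depended on the scale: per 1000000 of all unique fragments at E13.5, Gata4 had 5.82 in cluster 3, below cluster 8 (6.91) and cluster 1 (6.71), and Tbx5 had 4.2, below cluster 1 (8.63), cluster 9 (5.35) and cluster 10 (4.76). No sarcomere member was called higher in cluster 3 in that fit, from which Myl7 was left out for low counts. The rise in cluster 3 was not particular to heart factors. In the promoter window, its median log2 fold change was 1.47 over 5 smooth muscle genes, 0.88 over 4 epithelium genes and 0.67 over 13 skeletal muscle genes. The median over all genes tested there was 0.06, and of the gene lists compared only the sarcomere members lay below it (-0.02). Tbx5 was also called higher in cluster 1 (1.35 ± 0.29, adjusted p = 0.0007, edgeR), where 4.89% of all genes were.

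**Figure D2:**
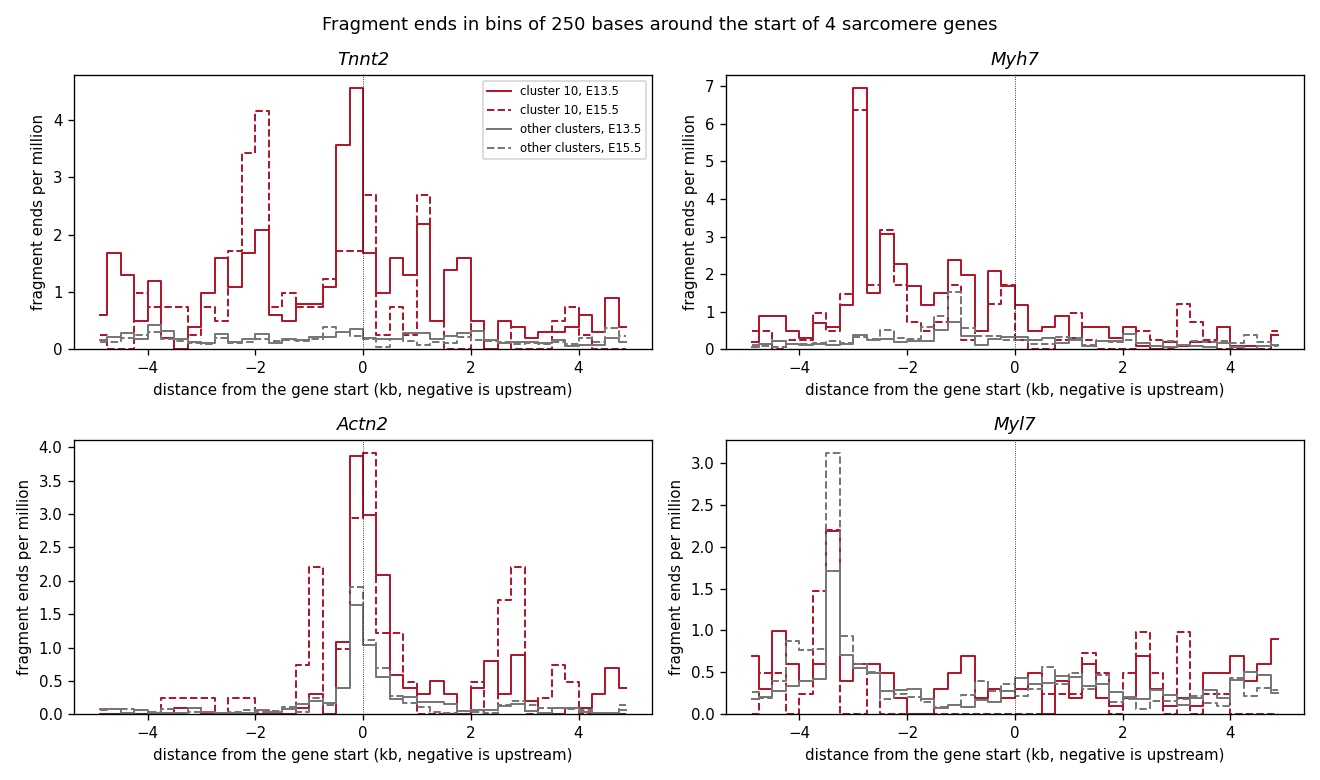
Fragment ends around the start of Tnnt2, Myh7, Actn2 and Myl7. The horizontal axis is the distance from the annotated start in kb, the vertical axis the fragment ends per 1000000 in bins of 250 bases, red lines are cluster 10 and grey lines all other nuclei outside clusters 2 and 4, solid for E13.5 and dashed for E15.5. Cluster 10 is higher at the Tnnt2 start and just under 3 kb upstream of Myh7, while the highest Myl7 bin is as high in other nuclei.

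The fragment ends showed where within these loci the nuclei of cluster 10 were open. The 250 bases before the Tnnt2 start, which hold the 4 E-boxes printed above, had 4.56 and 1.71 ends per 1000000 in the E13.5 and E15.5 libraries, against 0.365 and 0.233 in the other nuclei. At E15.5 the highest Tnnt2 bin lay further upstream, from 2000 to 1750 bases before the start, with 4.16 ends per 1000000. A further difference lay outside both windows, in the stretch of 250 bases from 3000 to 2750 before the Myh7 start, which overlaps no annotated gene. It was chosen after its values were seen, as the highest Myh7 bin in cluster 10, so it has no test. In cluster 10 it had 6.95 and 6.36 ends per 1000000 in these libraries, against 0.39 and 0.329 in the other nuclei, which are 17.8-fold and 19.3-fold differences. The highest other cluster had 1.52 ends per 1000000 in the former and 0.642 in the latter. The signal was spread over nuclei: 18 of 49 nuclei of cluster 10 (36.7%) had an end there in the E13.5 library and 9 of 24 (37.5%) in the E15.5 library, against 22 of 760 (2.89%) and 14 of 534 (2.62%) of the others. The Myh7 upstream sequence printed above holds 3 E-boxes and 1 CACTT and none of the other motifs. The 250 bases before the Actn2 start were open in other nuclei too. At E13.5 they had 3.87 ends per 1000000 in cluster 10, 1.63 in the rest and 4.34 in cluster 7. At E15.5 they had 2.94 in cluster 10, 1.9 in the rest and 3.37 in clusters 6 and 9. Cluster 10 was thus not the highest there in either library. Upstream of Myl7, the highest bin (3500 to 3250 bases before the start) had 2.18 and 2.2 ends per 1000000 in cluster 10 and 1.71 and 3.12 in the others.

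Other genes of heart and muscle were compared in cluster 10 beside the members. Of 16 genes listed for skeletal muscle, 14 were called higher in cluster 10 in the body window, where 5.70% of all genes were. Their median log2 fold change was 1.52, and the median over all genes tested was -0.01. The myogenic factor genes Myog (3.01), Myod1 (2.98) and Myf5 (3.09), which act in the formation of skeletal muscle, had the smallest p-values. Of 12 genes used by both heart and skeletal muscle, 9 were called higher, with a median of 0.93. Actc1, the alpha-actin of the heart and of embryonic skeletal muscle, rose by 3.91, Ttn (titin) by 1.83 and Tnni1 (slow troponin I) by 1.48. Of the 15 other heart genes that could be counted, none was called in either direction (median 0.19). The smallest p-values were those of the pacemaker channel gene Hcn4 (-0.79 ± 0.27, adjusted p = 0.0712, edgeR) and the ventricular light chain gene Myl2 (0.89 ± 0.32, adjusted p = 0.0934). By promoter, 2 of 8 other heart genes that could be tested were called higher, where 3.86% of all genes were. They were Isl1 (1.23 ± 0.33, adjusted p = 0.00917, edgeR), a factor of heart progenitors that is also made by motor and sensory neurons, and Myl2 (2.04 ± 0.65, adjusted p = 0.0463, edgeR). Of the shared genes 6 of 9 and of the skeletal muscle genes 10 of 13 were called higher by promoter. These lists were chosen with results of these data known. Whether cluster 10 also holds heart muscle nuclei was not tested.

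Markers of the other cell types of the heart were counted in the same way. None of 7 genes of endothelium and endocardium and none of 5 genes of epicardium was called in cluster 10 in the body window, with medians of -0.01 and 0.21. Of 7 smooth muscle genes 3 were called higher, namely Acta2 (2.08), Tagln (1.06) and Smtn (0.93), the former 2 of which are also on in immature striated muscle. Cluster 10 is called skeletal muscle-like here from the 14 skeletal muscle genes. In the body window no cluster was called higher at more than 1 of the 4 factor genes.

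**Figure D3:**
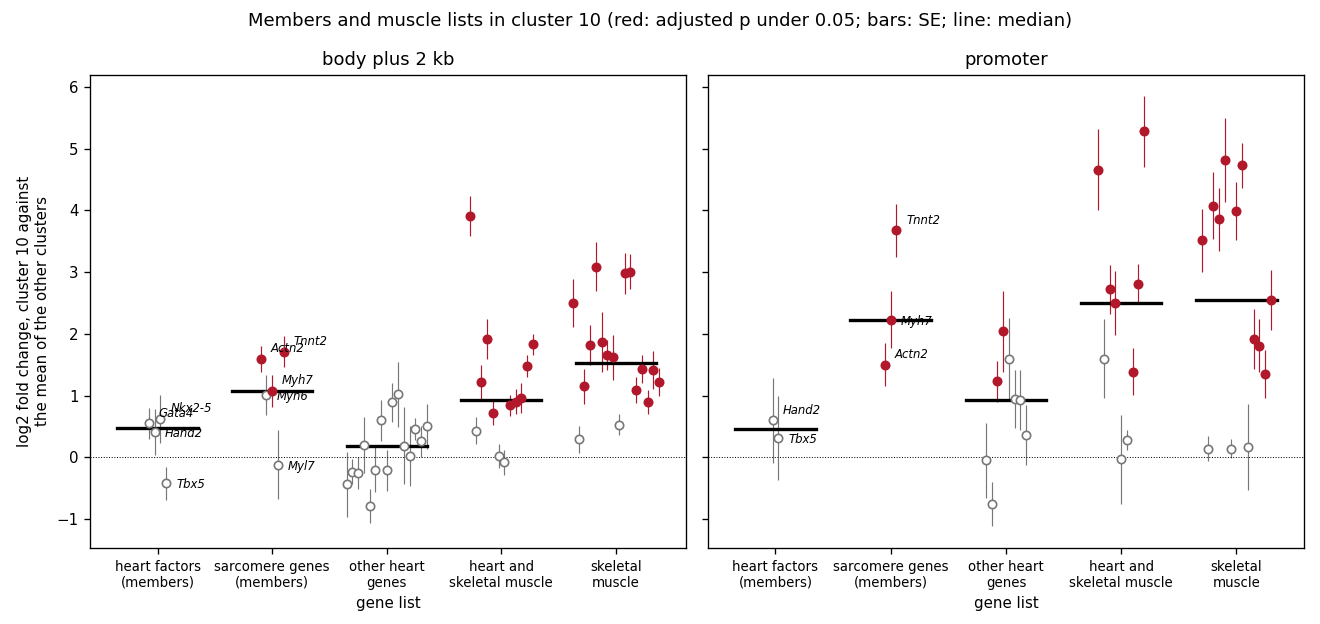
Members and muscle lists in cluster 10. Each point is a gene tested, the vertical axis is the edgeR log2 fold change of cluster 10 against the mean of the other clusters with its SE, the left panel is the body window and the right panel the promoter, filled red points passed the adjusted p threshold of 0.05, and lines are list medians. In the body window 3 of 5 sarcomere members and 14 of 16 skeletal muscle genes are red, and none of the 4 factors or of the 15 other heart genes is.

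Members were also called outside cluster 10. Over all 81 pairs of a member and a cluster in the body window, 6 were called higher, where 5.02% of all gene and cluster pairs were. Of these 6, 3 were those of cluster 10, so outside it members were called higher no more often than genes in general. In the same window 3 pairs were called lower, where 3.26% of all pairs were. Tbx5 was called higher in cluster 1 (log2 fold change 1.27 ± 0.20, adjusted p = 7.9e-05, edgeR), a mesenchyme-like cluster in which 6 of 6 mesenchyme genes were higher. It had 185.7, 85.3 and 79.9 CPM there in order of stage, but 32 of the 64 fragments at E12.5 came from a single nucleus, without which that value was 92.9 CPM. Tbx5 was also called higher in cluster 3 (0.76 ± 0.19, adjusted p = 0.0167, edgeR), in which 6 of 6 mesenchyme genes were higher too, with 57.4, 73.1 and 98.7 CPM in order of stage. Myh7 was called higher in cluster 0 (0.87 ± 0.23, adjusted p = 0.0107, edgeR), with 43.3, 37.4 and 52.9 CPM, where 5 of 5 neuron genes were higher. Cluster 5, in which 6 of 6 erythroid genes were higher, was lower at Tbx5 (-1.40 ± 0.28, adjusted p = 0.00018, edgeR) and Hand2 (-1.47 ± 0.46, adjusted p = 0.0144, edgeR), and 16.3% of all genes were called lower in that cluster. Cluster 8 was lower at Actn2 (-0.95 ± 0.26, adjusted p = 0.0182, edgeR). At the promoters, 4 of 45 pairs were called higher, where 6.38% of all pairs were, and 5 lower, where 4.01% were. The higher pair outside cluster 10 was Myh7 in cluster 0 (1.30 ± 0.44, adjusted p = 0.0259, edgeR). Of the 5 lower pairs 4 were in cluster 5, where 22% of all genes were called lower. The other was Tnnt2 in cluster 9 (-3.30 ± 1.07, adjusted p = 0.0491, edgeR), which had 0, 1 and 0 Tnnt2 promoter fragments in order of stage.

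The order of the clusters was steep for few members. In the body window, Tnnt2 averaged 69.8 ± 2.83 CPM in cluster 10 (SD, n = 2 libraries) and 31.2 ± 7.26 in the next, cluster 3 (n = 3). Actn2 averaged 156 ± 2.26 in cluster 10 (n = 2) and 71.2 ± 12.6 in the next, cluster 9 (n = 3). These were the only members whose highest cluster differed from the next by more than their summed SDs. Myh7 was led by cluster 10 (52 ± 12) before cluster 0 (44.5 ± 7.86), and Myh6 by cluster 10 (43.1 ± 23.3) before cluster 7 (37.7 ± 24.3). By their means, Nkx2-5, Gata4 and Hand2 were led by cluster 3, Tbx5 by cluster 1 and Myl7 by cluster 7. The place of cluster 1 for Tbx5 rested on its E12.5 sum. Another cluster was above it at E13.5 (87.4 CPM) and at E15.5 (98.7 CPM). These means cover 3 libraries in some clusters and 2 in others, and over E13.5 and E15.5 alone Gata4 had 112.7 and 92.3 CPM in cluster 3 beside 81.7 and 125 in cluster 10. Cluster 5 was last for Tbx5 and Hand2. By its mean it was also last for Gata4, Myh6, Myh7 and Myl7. Its E12.5 and E15.5 sums hold only 10 nuclei each, and that place came from at least 1 of them. The 166 nuclei of cluster 5 at E13.5 were not last for any of these 4, with 51.7, 21.1, 25.4 and 10.9 CPM in that order.

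Likeness was measured across the 23 sums. The gene whose log2(CPM + 1) tracked Tnnt2 most closely was Tnni1 (Pearson r = 0.84), followed by Jsrp1 (0.83), a protein of the sarcoplasmic reticulum of skeletal muscle, and Gbf1 (0.81). For Actn2 they were Lrrc38 (0.82), the sarcolipin gene Sln (0.80) and Myog (0.77), and for Myh7 Stac3 (0.84), a component of excitation-contraction coupling in skeletal muscle, Acp4 and Ccdc113 (0.82 each). For Nkx2-5 the closest was the skeletal myosin gene Myh4 (0.86), for Gata4 Hoxd9 (0.88), for Tbx5 Phactr1 (0.88), for Hand2 Bmp3 (0.87), for Myl7 Smyd2 (0.88) and for Myh6 Upk3bl (0.76). No member was among the 3 closest genes of another. The sums share libraries and differ in depth, and with 19196 genes compared high values of r arise readily, so these are descriptions only.

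Stage could be described but not tested, with 1 library each. Over all nuclei outside clusters 2 and 4, the body level at E15.5 was above that at E12.5 for 4 of 9 members. Tnnt2 had 38.6, 27.9 and 24.3 CPM in order of stage, a ratio of 0.629 between the last and the first (exact 95% interval 0.53 to 0.75, counting error only). A single E12.5 nucleus of cluster 6 held 25 of its 176 fragments. Myh6 went from 18.2 to 26.4 and 23.8 CPM, a ratio of 1.31 (1.04 to 1.67), and Hand2 from 15.4 to 10.5 and 11.3 CPM, a ratio of 0.733 (0.561 to 0.968). Tbx5 had a ratio of 0.861 (0.758 to 0.981). For Nkx2-5, Gata4, Myh7, Myl7 and Actn2 the interval of this ratio included 1. At the promoter, the same ratio was 0.425 for Hand2 (0.248 to 0.759) and 0.519 for Actn2 (0.368 to 0.746), the latter opposite in direction to its body window (1.12, 0.982 to 1.29), and the intervals of the other 7 included 1. The clusters that make up a library differ between stages. With the 5 clusters that have a sum in every library weighted equally, the body level of Tnnt2 was 25.2, 23.3 and 18.2 CPM in order of stage, that of Hand2 12.6, 11.7 and 9.67 CPM, and that of Myh6 19.1, 24.4 and 20.4 CPM. The direction from E12.5 to E15.5 then turned for Myl7, from 7.68 to 5.84 CPM, and for Nkx2-5, from 10.1 to 11.1 CPM. Without the nucleus with the most fragments of the member in each library, an alternative added after seeing the data, 6 of 9 members were higher at E15.5, with Gata4 turning (76.6 to 77.3 CPM) and Nkx2-5 too (12.1 to 12.2 CPM). Nkx2-5 also turned per 1000000 of all unique fragments, from 7.2 to 7.47.

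Within cluster 10 the members also differed between E13.5 and E15.5. The ratio of E15.5 to E13.5 was 1.06 for Tnnt2 (0.816 to 1.36) and 1.02 for Actn2 (0.859 to 1.21), with intervals around 1. It was 0.447 for Myh6 (0.299 to 0.651), 0.72 for Myh7 (0.521 to 0.98) and 1.53 for Gata4 (1.24 to 1.88). Of these fragments single nuclei held up to 40 for Myh6 at E13.5 and 22 for Gata4 at E15.5, more than counting error assumes. The 2 nuclei of cluster 10 at E12.5 had 11 Tnnt2 fragments, all in 1 of them, and 6 Myh7, 3 Actn2 and 0 Myh6 and Myl7 fragments.

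The last question was whether a few single nuclei carry most of these genes at once. By promoter fragments, 1122 of 1879 nuclei had none of the 9 members, 460 had 1, 212 had 2, 71 had 3 and 12 had 4. The shallow clusters 2 and 4 are included here, and 401 of the 1122 nuclei came from them. Only 2 nuclei had at least 5, which is 0.106% (exact binomial 95% interval 0.0129 to 0.384%), and none had more than 6. That interval takes nuclei as independent, although they come from 3 libraries and some barcodes are linked. With 1000 bases on both sides of the start 13 nuclei had at least 5, and with the starts of all transcripts 17, of which 2 had 7. In the body window 260 nuclei had 5 members, 188 had 6, 108 had 7, 49 had 8 and 8 had all 9. The number of promoters covered followed depth, with a median of 27064 fragments in nuclei with none, 75796.5 in those with 1 and 181788 in those with 4. No nucleus at or below the median depth of its library, clusters 2 and 4 included, reached 5 by the promoter window.

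The 2 nuclei were described singly. The nucleus with 6 members came from cluster 10 at E13.5 and had 163586 fragments, 2.18 times the median of its library without clusters 2 and 4. It had promoter fragments at Nkx2-5 (2), Tbx5 (1), Myh6 (2), Myh7 (1), Tnnt2 (2) and Actn2 (3). At the starts of 16 skeletal muscle genes it had fragments for 9, among them Myod1, Myf5, Myog and Pax7, and at those of 15 other heart genes for 6, among them Nppa, Tbx20, Gata6, Hand1 and Isl1. The other came from cluster 0 at E15.5 and had 233094 fragments, the depth rank 3 among 558 nuclei. It had promoter fragments at Nkx2-5 (1), Hand2 (2), Tnnt2 (2), Myl7 (3) and Actn2 (1). It had start fragments for 7 of 15 other heart genes, but also for 5 of 6 sympathetic neuron genes and 4 of 5 neuron genes. Further lists were covered in part, with 3 of 6 epithelium, 3 of 6 erythroid and 3 of 7 smooth muscle genes, and 0 of 6 hepatocyte genes. The share over all genes in this deep nucleus is not given here. Both nuclei thus had fragments at genes of other lineages beside the members. No doublet caller was run, and whether these barcodes hold more than 1 nucleus was not tested.

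**Figure D4:**
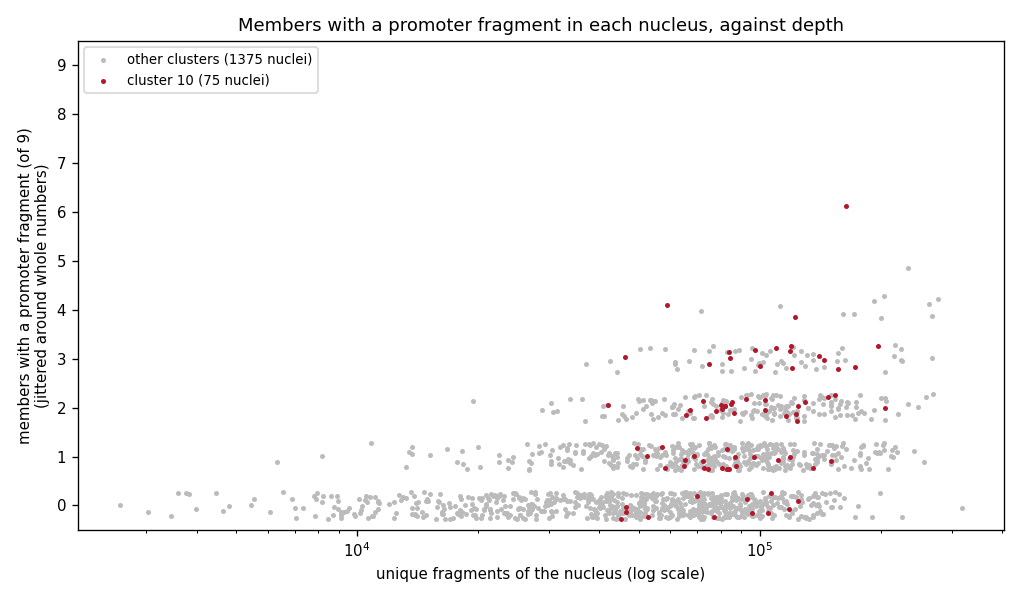
Members with a promoter fragment in each nucleus against its depth. Each point is a nucleus outside clusters 2 and 4, the horizontal axis is its unique fragments on a log scale, the vertical axis the number of the 9 members with a promoter fragment, moved slightly up or down at random so that points can be seen, and red points are cluster 10. The number rises with depth, and 2 nuclei reach 5 or 6.

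With depth held equal, the nuclei of cluster 10 covered more members on average than others. Each nucleus of at least 20000 fragments was thinned to 20000 by a single random draw, and 131 shallower nuclei of 1450 were left out. Members with a fragment in the body window were then counted. Cluster 10 averaged 2.95 members (SD 1.36 over 75 nuclei) where the other clusters averaged between 1 and 2.28. Its mean was 3.02 in the E13.5 library and 2.92 in the E15.5 library, the highest of all clusters in each. Its 2 nuclei at E12.5 averaged 1.5, where the other clusters averaged 1.43 to 2.73. At least 5 members were covered in 52 of 1319 nuclei (3.94%), 13 of them among the 75 nuclei of cluster 10 (17.3%). By library these shares were 1.27%, 3.09% and 5.66% in order of stage. The exact binomial interval of the pooled share, 2.96 to 5.14%, takes nuclei as independent and leaves out this spread. At least 6 members were covered in 8 nuclei, and none covered more at this depth. Separate draws of 10000 or 40000 fragments left nuclei with up to 7 and 8 members. Before thinning, the means over the same nuclei were 5.47 in cluster 10 and 1 to 5.03 in the other clusters. Nuclei are not replicates, so no test was made on them.

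**Figure D5:**
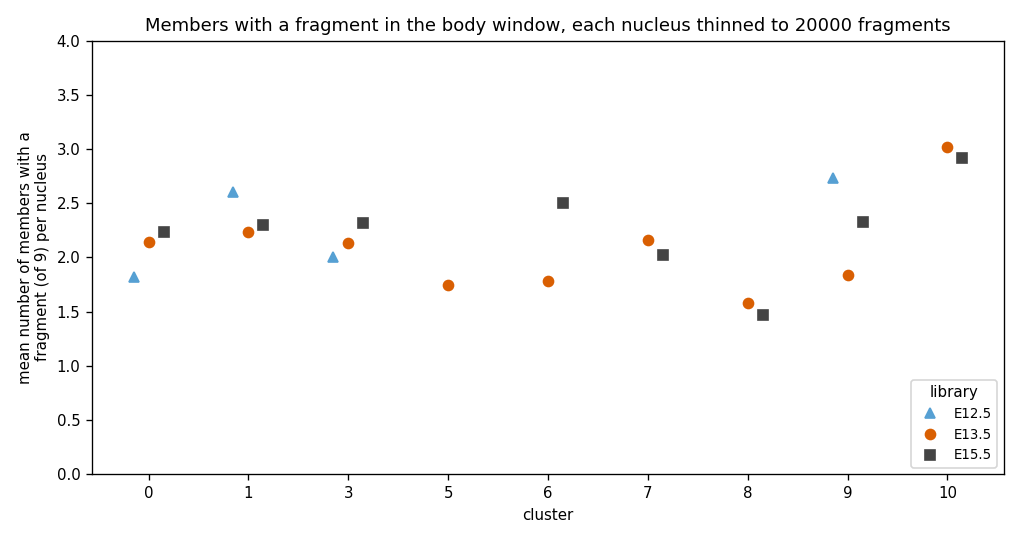
Mean number of members with a fragment in the body window after every nucleus was thinned to 20000 fragments. The horizontal axis is the cluster, the vertical axis the mean over nuclei (of 9 members), and marks are libraries, shown where at least 10 nuclei remained. Cluster 10 is highest in the E13.5 library (3.02) and in the E15.5 library (2.92).

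Per nucleus, the members' fragments were also concentrated in another way. Some nuclei with a high count for a member had few fragments at the others: the nucleus with the most Actn2 fragments at E15.5, in cluster 10, had 56 of them and at most 5 at any other member. The nucleus with the most Tbx5 fragments at E13.5, in cluster 0, had 49 and at most 5 elsewhere, and that with the most Tnnt2 fragments, in cluster 5, had 34 and at most 2. Other nuclei were rich in several members. At E13.5 a nucleus of cluster 3 had 64 Gata4 and 47 Tbx5 fragments, and a nucleus of cluster 10 with 153356 fragments had the most Actn2 (42) and the most Nkx2-5 (17) of its library, with 27 at Tbx5. The nucleus with the most Myh6 fragments at E13.5, also of cluster 10, had 40 of them and 18 at Actn2. At E12.5 a nucleus of cluster 3 had 46 Gata4 and 18 Tbx5 fragments, another 10 Hand2 and 26 Gata4, and a nucleus of cluster 9 had 20 Actn2 and 17 Gata4. At E15.5 a nucleus of cluster 3 had 21 Myh6 and 13 Gata4 fragments. In E12.5 single nuclei weighed more, up to 17.2% of the fragments of a member (Myl7, 5 of 29). In cluster 11, which had 35 nuclei at E13.5 and few fragments, the 9 members had at most 16 fragments each.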

How the data were processed

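Chromatin accessibility was measured by snATAC-seq (10x Genomics) in 3 libraries of wild-type embryos, sorted as 7-AAD-stained nuclei. The authors aligned reads to mm10 with Cell Ranger ATAC 2.0.0 and deposited fragment lists, in which each unique fragment has a count of read pairs, and a cell table with cluster numbers and counts per nucleus. Their notes also list Seurat 4.1.0 and Signac 1.6.0. The paper describes integrating these nuclei with its spatial data, grouped by sample. Whether the deposited clusters come from that step, and with what settings, is not stated in the sources used here. Of the cell table, 20 columns were not used.

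Unique fragments, each counted once per gene window, were summed over nuclei per cluster and library (GENCODE vM21, 21593 genes). Sums of at least 10 nuclei (23 sums, 9 clusters) were tested in edgeR 4.0.16 (R 4.3.3) with TMM, its filter on low counts, the library as a block, and an adjusted p threshold of 0.05. On simulated data for cluster 10 in the body window (19196 genes), 64% of 2-fold and 97% of 4-fold changes were recovered, with 10 false among 171 calls. Apart from the changes set in cluster 10, the simulation gave a gene the same mean share in every cluster and library. The data differ more than that, so these rates may not hold for them. No doublet caller was run. Alternatives included DESeq2 1.42.0. Named genes were the 9 members, the 3 genes of a list with the smallest p, and the 3 genes most like a member. Of the genes so named, 1 is not reported here. Members and lists were chosen with earlier results of these data known. Recounted fragments per nucleus differed from the deposited tally by at most 0.604%.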

Additional observations from a re-analysis of the deposited data

Results flagged for a closer look

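Hand2, and by a narrow margin Myl7, stood on opposite sides of the other clusters in the 2 libraries in which cluster 10 could be compared. In the body window, the fold of cluster 10 over the mean of the other clusters was 1.55 for Hand2 at E13.5 and 0.754 at E15.5, and 1.02 and 0.647 for Myl7. For Myl7 the value at E13.5 was 0.989 with 1 barcode per linked group and 0.983 against all other nuclei pooled, on the same side as at E15.5. The difference between the libraries was not tested.

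Fragments of the members also lay in barcodes that are not in the cell table and have at least 1000 fragments. In order of stage there were 36, 2818 and 1987 such fragments, in 36, 546 and 272 barcodes. Per 10000 fragments these were 1.2, 1.96 and 2.07, against 1.77, 1.83 and 1.83 in the listed nuclei. A single E13.5 barcode outside the table had promoter fragments at 5 members.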

How the results depend on the processing

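The calls of Tnnt2 and Actn2 in the body window held in each of 11 other settings, and that of Tnnt2 at the promoter in each of 13. Myh6 in the body window passed with at least 20 nuclei per sum (adjusted p = 0.0259, edgeR), without E12.5 (0.0207) and without the library block (0.0375). Leaving out a library gave 2 to 4 members called in cluster 10 in the body window and 1 to 4 at the promoter. Leaving out E13.5 or E15.5 left cluster 10 with 1 library, assumed to vary like the other clusters. Myh7 in the body window was then lost (0.38 and 0.062). At the promoter, Myh7 (0.614) and Actn2 (0.134) were lost without E13.5, and Actn2 (0.299) without E15.5.

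The 6 pairs of member and cluster called higher in the body window became 11 with at least 5 nuclei per sum and 3 to 8 without a library. The 4 promoter pairs became 7 with no filter on low counts, 8 with at least 5 nuclei, 7 with 1 barcode per linked group, 8 with a window of 1000 bases on both sides, 9 with the starts of all transcripts, and 1 to 7 without a library. The 2 nuclei with at least 5 members became 13 with 1000 bases on both sides, 17 with all starts, 0 at or below the median depth, and 14 with at least 4 members. The 52 nuclei after thinning became 6 at 10000 fragments, 234 at 40000, and 8 with at least 6 members. Myl7 in the body window turned to 0.02 with at least 20 nuclei, 0.65 with at least 5 and from -0.06 to 0.16 without a library. Hand2 ranged from -0.30 to 0.85 in the body window and from -5.0 to 1.42 at the promoter without a library, below 0 without E13.5 in both. The cause was not tested. The summary values are counts, and 47 of 65 stayed within a ratio of 3 to 2 of the main count, whichever calls lay behind them. Of the values per gene, 149 of 163 kept direction and side of the threshold. The fold and stage level without the largest nucleus were added after seeing the data. Clusters were compared within libraries through the library block, and the labels give no replicate numbers to pair.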
